A study of Mus musculus with 3 samples.

Results

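The genes described here bind, make, degrade or respond to retinoids. The set was given as 8 named genes, namely Rbp4, Crabp1, Crabp2, Aldh1a1, Aldh1a2, Aldh1a3, Cyp26b1 and Rarb, and all 8 were among the 21446 gene identifiers present in each of the 3 libraries. The libraries held single cells dissociated from mouse mandibular molars, sorted for the mCherry reporter of a Pthrp-mCherry knock-in allele and profiled with 10x Chromium 3' chemistry. One library was made from mice aged P15 (postnatal day 15), another at P25 and another at 8 weeks, and the labels give all 3 the same genotype, Pthrp-mCherry knock-in, and no treatment. Cells of several mandibles were pooled, mice of both sexes, most lines on a C57BL/6 background, were used in the study, and the sort limits the sample to cells with reporter signal. The libraries held 12926, 8971 and 5192 cells in order of age, with 188157997, 169712592 and 46234378 unique molecular identifiers (UMIs) and medians of 14253.5, 15834 and 8712.5 UMIs per cell. Pairs of libraries shared 26 (P15 and P25), 16 (P15 and 8 weeks) and 13 (P25 and 8 weeks) cell barcodes.

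Vitamin A leaves the liver as retinol bound to RBP4, the plasma carrier, and enters cells where dehydrogenases turn it into retinaldehyde and then into retinoic acid. The retinaldehyde dehydrogenases encoded by the Aldh1a genes carry out the last step, and the cytochrome P450 enzymes of the Cyp26 family clear the product. Inside the cell CRABP1 and CRABP2 bind retinoic acid, CRABP2 delivering it to nuclear receptors such as RARB, whose own gene is a classic target of the pathway. In teeth and jaws retinoic acid is known for roles in patterning, epithelial differentiation and mineralized tissue.

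Cells were assigned by UMIs of a single gene each. The gate genes were Ibsp (bone sialoprotein, a protein of mineralized matrix), Ifitm5 (a transmembrane protein of osteoblasts and other mineralizing cells), Hand2 (a transcription factor of jaw mesenchyme), Rgs5 (a mural cell gene), Mia, Pappa2 (a protease acting on IGF-binding proteins) and Krt14 (a keratin of basal epithelium). A cell passed a gate when the gene reached 20% of the level, per 10000 UMIs, that 0.5% of cells exceeded (mean of the 3 libraries), and at least 3 UMIs. Thresholds ran from 0.781 UMIs per 10000 for Pappa2 and 1.39 for Hand2 to 146 for Ibsp. At the median depth, the minimum of 3 UMIs was the stricter rule for Pappa2 and Hand2 in each library. For Mia (2.86) it was so at 8 weeks. Passing these gates therefore depended on depth, which was lowest at 8 weeks, and the part of this in ratios between ages was not tested. Cells past exactly 1 gate numbered 7033 of 27089, 992 cells passed several gates and were left out, and 19064 (70.4%) passed none. Mia cells numbered 77, 380 and 248 in order of age, Hand2 cells 206, 546 and 367, Ibsp cells 646, 612 and 483, Ifitm5 cells 205, 471 and 102, and Krt14 cells 949, 806 and 104. The Pappa2 gate held 573, 25 and 12 cells, and the Rgs5 gate held 201, 12 and 8. Sums of under 20 cells were left out of the tests, so Rgs5 entered with P15 alone and Pappa2 with P15 and P25. Of 5 further markers per gate, 3 to 5 were highest in their own gate in every case except the Pappa2 gate at P25 and 8 weeks, where 2 of 5 were.

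The members lie on 6 chromosomes in the GRCm38 build as annotated by GENCODE vM21. Crabp1 (ENSMUSG00000032291) spans chr9:54764748-54773110 and Aldh1a2 (ENSMUSG00000013584) chr9:71215789-71296243. Crabp2 (ENSMUSG00000004885) spans chr3:87948666-87953376, Cyp26b1 (ENSMUSG00000063415) chr6:84571414-84593908 and Aldh1a3 (ENSMUSG00000015134) chr7:66390890-66427517. Rarb (ENSMUSG00000017491) spans chr14:16430839-16819156, Aldh1a1 (ENSMUSG00000053279) chr19:20492715-20643465 and Rbp4 (ENSMUSG00000024990) chr19:38116629-38125281. Crabp1, Crabp2, Aldh1a1 and Aldh1a2 are on the plus strand and the other 4 on the minus strand.

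A promoter of Rarb is shown because this gene is both a receptor of the pathway and one of its known targets. Like Aldh1a3, it also had its highest level in the Mia gate below. RefSeq windows (GRCm38.p6) of 250 bases before to 50 after the start site were given for 6 of the 8 members, Crabp2 and Aldh1a3 not being among them. They were searched on both strands for a direct repeat of the half-sites AGGTCA and AGTTCA as well as GGGTCA and GGTTCA, in any pair, with a spacer of 5 bases (NNNNN), the letters of a retinoic acid response element. The RefSeq start site given for Rarb lies inside the GENCODE span of the gene, whose 5' end on the minus strand is at chr14:16819156. Which start site the transcripts counted here came from was not tested. The 120 bases before the RefSeq start site, chr14:16575477-16575596 on the minus strand, held 1 match at positions -53 to -37, with its 2 half-sites in capitals.
Rarb: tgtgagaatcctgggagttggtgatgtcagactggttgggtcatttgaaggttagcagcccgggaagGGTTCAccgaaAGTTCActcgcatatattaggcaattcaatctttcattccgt
Of all 32851 windows, 32 (0.0974%) held such a match, and among the members with a window Rarb was the single gene with one. The match describes these letters and was not tested as a binding site. Other spacings and bases outside the windows were not searched, so nothing is read from the members without a match.

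UMIs were summed per library and gate, and 18 sums entered 1 edgeR fit of 13706 genes, in which each gate was compared with the mean of the other 6. Libraries served as the replicates of a gate, so the spread behind each p includes the difference in age, and pooled animals were not separate replicates. Over the 56 pairs of a member and a gate, 16 passed the edgeR quasi-likelihood test at a Benjamini-Hochberg adjusted p under 0.05, against a background of 17.7% over all genes and gates. The 16 comprised 10 in which the gate was higher (10.7% over all genes) and 6 in which it was lower (6.92%). With the library as a replicate block, since sums of a library share their animals, 20 pairs were called and 15 of the 16 were among them. Called members per gate were 4 in Mia (20.5% of all genes called there), 5 in Krt14 (55.4%), 3 in Pappa2 (3.2%), 2 in Hand2 (8.78%), 2 in Ibsp (9.65%), 0 in Ifitm5 (19.7%) and 0 in Rgs5 (6.44%). For Krt14 cells the share of members was near the background. The counts of 0 came from edgeR's quasi-likelihood test, where 0 members in Ifitm5 and 2 in Rgs5 had an unadjusted p under 0.05, and DESeq2 called 0 and 1. The median log2 difference over the 8 members was -0.07 in Mia, 1.02 in Pappa2, 0.71 in Hand2, -0.86 in Ibsp, -0.66 in Ifitm5, -0.45 in Rgs5 and -1.64 in Krt14, where the medians over all genes lay between -0.06 and 0.02.

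**Figure D1:**
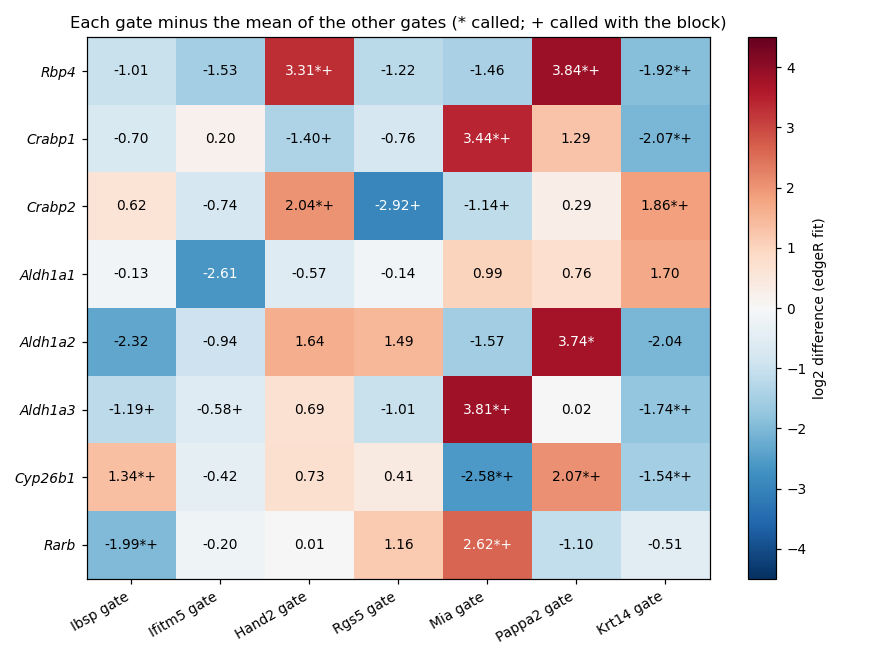
Log2 difference of each gate from the mean of the other gates (columns) for the 8 members (rows), from the edgeR fit over 18 sums. Colour runs from blue (lower) to red (higher), an asterisk marks an adjusted p under 0.05 and a plus sign the same with the library as a block. Crabp1 (3.44), Aldh1a3 (3.81) and Rarb (2.62) stand out in the Mia gate, and Rbp4 in the Hand2 (3.31) and Pappa2 (3.84) gates.

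Rbp4, the retinol carrier, was highest per UMI among the gates in Hand2 and Pappa2 cells, while most of its UMIs were in the cells of no gate (62.3% at P15, 76.0% at P25 and 85.3% at 8 weeks). In Hand2 cells the P15 level was 107 CPM (UMIs of the gene per 1000000 UMIs), followed by 36.8 CPM in the P25 library and 12 CPM in the 8-week library. Pappa2 cells held 71.2 CPM (P15) and 65.0 CPM (P25), and the 12 cells of the 8-week library held 29.7 CPM. The remaining gates with at least 20 cells held between 0.568 and 8.05 CPM, so the 5 sums of the Hand2 and Pappa2 gates lay above all others. The 8.05 CPM were those of Ibsp cells at P25, where 1 cell supplied 54 of 67 UMIs. Hand2 cells were higher than the other gates by 3.31 on the log2 scale (SE 0.53, edgeR adjusted p = 0.00164, above in 3 of 3 libraries). Without the P15 library the difference was 2.09 and the edgeR adjusted p was 0.0679. Pappa2 cells were higher by 3.84 (SE 0.60, edgeR adjusted p = 0.0033, 2 of 2 libraries), and that call was lost without P15 (0.102) or P25 (0.0689). Krt14 cells were lower by a log2 difference of -1.92 (edgeR adjusted p = 0.0376), a call lost without P15 (0.0561) or P25 (0.214), at 5 UMIs (0.0949) and with no filter on low counts (0.0512). Krt14 cells were not separated from Ifitm5 cells, the next gate in the order of levels (edgeR adjusted p = 0.809).

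Within Hand2 cells the 8-week level of Rbp4 was 0.112 times that of P15 (95% interval 0.0825 to 0.148, 54 against 446 UMIs), and the P25 level was 0.343 times that of P15. The log2 ratio of 8 weeks over P15 was -3.16, and -1.74 with a gate of 5 UMIs. That gate held 129 Hand2 cells at P15 and 31 at 8 weeks. Time points had 1 library each, so intervals of ratios cover counting error only and no test between ages was possible. With each cell thinned to 3000 UMIs, 19.0% (P15), 5.68% (P25) and 3.54% (8 weeks) of Hand2 cells had an Rbp4 UMI (43.2%, 13.0% and 8.17% before thinning). Cells with Ptprc, a marker of blood cells that served as the background, had 1.06% at P15 and 0 of 213 at P25, which allows up to 1.41% at a count of 0. Their median depths were 10739.5 and 16123 UMIs, against 18895 and 16343 in Hand2 cells. The summed level of 8 immune markers in Hand2 cells moved the same way, from 797 CPM at P15 to 13.9 and 9.09, with none of the 8 at 0 at P15 and 2 at 0 at 8 weeks (Ptprc and Cd79a), and that of 3 Schwann markers went from 44.0 to 6.37 and 4.43 CPM. Rbp4 in the Ptprc cells of P15 stood at 6.03 CPM, below the 107 CPM of Hand2 cells, and the part of the other cells in the Hand2 values was not tested. At P15 Krt14 cells (2.47 CPM) were below these Ptprc cells, as were Ibsp, Ifitm5, Mia and Rgs5 cells. This limits the lower call of Krt14 cells. At P25 Krt14 cells (1.88 CPM) were above the Ptprc cells (0.253 CPM on 1 UMI). In the cells of no gate Rbp4 was at 17.9, 19.9 and 14.4 CPM, the last of which is above the 12 CPM of Hand2 cells at 8 weeks.

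Crabp1, a cytosolic retinoic acid binding protein, was highest in Mia cells in each library. Its level there was 1049 CPM at P15, 575 at P25 and 1090 at 8 weeks. Pappa2 cells followed with 331 at P15 and 132 at P25, then Ifitm5 cells with 164, 58.7 and 92.1. Every sum of the Mia gate exceeded every sum of at least 20 cells in the other gates. The difference was 10.8-fold (log2 3.44, SE 0.34, edgeR adjusted p = 1.58e-05), and it was called without each library in turn. The neighbouring Pappa2 gate was not separated from Mia in the fit without the block (log2 difference 1.84, edgeR adjusted p = 0.0914) and was with it (0.0238). At 3000 UMIs per cell, 70.1%, 57.9% and 78.1% of Mia cells had a Crabp1 UMI (96.1%, 86.6% and 94.0% before thinning), where Ptprc cells had 10.8%, 4.23% and 0 of 16 cells.

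Low levels of Crabp1 need the background beside them. Ptprc cells held 103 CPM at P15, 39.3 at P25 and 4.69 at 8 weeks. At P15 Ibsp (63.5), Hand2 (67.8), Rgs5 (81.1) and Krt14 (51.5) cells were below that background, so these P15 values were not read as expression. At P25 Krt14 cells (21.9) were again below it and Hand2 cells (40.3) near it, which limits the following differences of these gates. Krt14 cells held 51.5, 21.9 and 9.66 CPM and were lower than the other gates by a log2 difference of -2.07 (edgeR adjusted p = 0.00114, and 0.0856 at 5 UMIs). In Hand2 cells the difference was -1.40, with an edgeR adjusted p of 0.0548 without and 0.0234 with the block. Ibsp cells held 80.7 CPM at 8 weeks, where the 4.69 CPM of Ptprc cells rest on 19 cells. Most Crabp1 UMIs were outside the gates, in the cells of no gate, with 89.6%, 88.4% and 85.0% of the gene's UMIs and 533, 506 and 652 CPM. Mia cells held 1.55%, 6.04% and 10.9% of the UMIs. In Mia cells the 8-week and P15 levels were not resolved (ratio 1.04, 95% interval 0.970 to 1.11), and the P25 level was 0.549 times that of P15 (0.513 to 0.587).

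**Figure D2:**
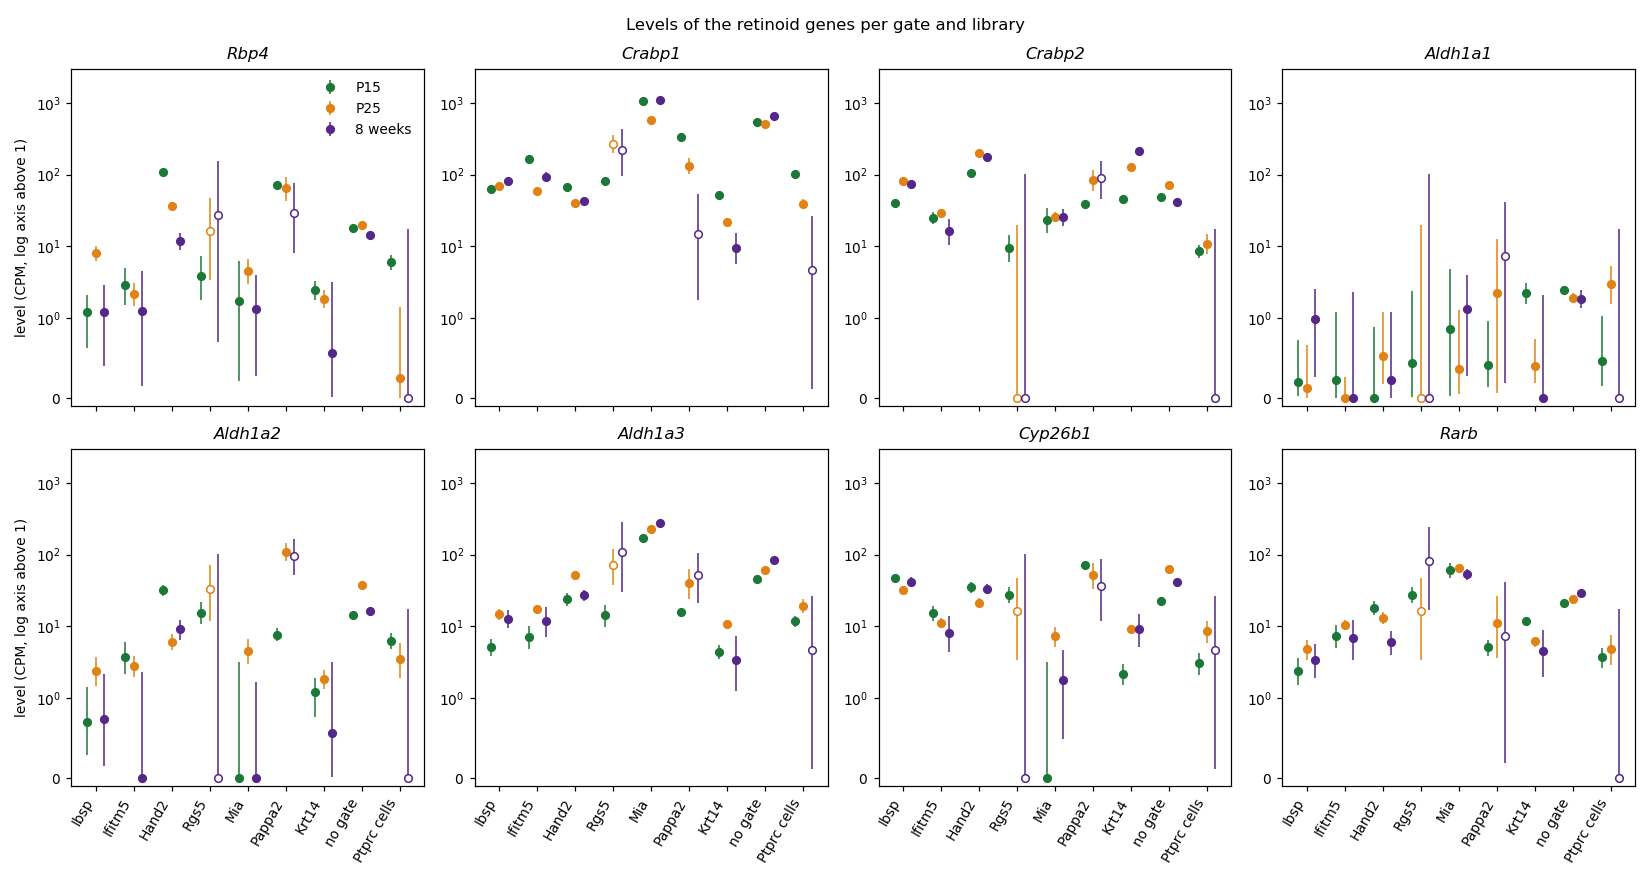
Level of each member in CPM (log axis above 1, linear below) in the 7 gates, in cells of no gate and in Ptprc cells, with 1 point per library and 95% Poisson intervals. Open points are groups of under 20 cells. Crabp1 and Aldh1a3 peak in the Mia gate at all 3 ages, and Rbp4 in Hand2 cells goes from 107 to 12 CPM.

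Crabp2, which carries retinoic acid to the nucleus, had another distribution and was highest in Hand2 and Krt14 cells. Hand2 cells held 106 CPM at P15, 203 at P25 and 176 at 8 weeks. Krt14 cells held 45.4, 129 and 214 CPM. Ibsp cells held 40.3, 82.6 and 74.6 CPM, and Mia cells 23.3, 25.7 and 25.3. The Hand2 values were above those of Ibsp, Mia and Ifitm5 cells in each library, while those of Hand2 and Krt14 cells overlapped. Hand2 cells were higher than the other gates by 2.04 on the log2 scale (SE 0.34, edgeR adjusted p = 0.00199, 3 of 3 libraries), with an edgeR adjusted p of 0.0944 without the P25 library. Krt14 cells were higher by 1.86 (SE 0.34, edgeR adjusted p = 0.000372), a call that held without each library. Hand2 and Krt14 cells were not separated by the test (log2 difference 0.16, SE 0.46, edgeR adjusted p = 0.819). Mia cells were at -1.14 (edgeR adjusted p 0.0754 without and 0.00762 with the block, and 0.000747 without P15), and the single Rgs5 sum, assumed to vary like the other gates, at -2.92 (0.0512 without and 0.0259 with the block).

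Crabp2 in Krt14 cells was 2.84 times as high at P25 as at P15 (95% interval 2.63 to 3.08) and 4.72 times as high at 8 weeks (4.16 to 5.35), on 771 UMIs at P15 and 377 at 8 weeks. Of the 377 UMIs at 8 weeks, 1 cell held 61, and the top 3 of the 104 cells held 34.5%. At P15 the top cell held 19 of the 771 UMIs. The 8-week ratio thus rests in part on few cells, which its counting interval does not cover. With a gate of 5 UMIs the log2 ratio of 8 weeks over P15 was 1.52 in place of 2.24. That gate was looser for Krt14, with 1834 cells at P15 and 127 at 8 weeks. The summed level of 8 immune markers in Krt14 cells went from 897 CPM at P15 to 158 and 11.9, with 0, 0 and 4 of the 8 at 0 (Ptprc, Csf1r, Tyrobp and Cd79a at 8 weeks). Ptprc cells held 8.63, 10.9 and 0 CPM of Crabp2, and the part of other cells in the Krt14 values was not tested. The thinned share of Krt14 cells with a Crabp2 UMI was 11.4%, 23.1% and 29.8% (31.3%, 56.2% and 54.8% before thinning), against 1.59% and 2.35% of Ptprc cells at P15 and P25. In Ibsp cells the 8-week level was 1.85 times that of P15 (1.59 to 2.15) and in Hand2 cells 1.65 times (1.47 to 1.86). In the cells of no gate the P25 level was 1.46 times that of P15 (1.41 to 1.51). Their ratio of 8 weeks over P15 was 0.831 (0.780 to 0.884), so at 8 weeks the ungated cells went the other way. In Mia cells no direction was resolved (ratio 1.09, 0.677 to 1.79).

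Aldh1a3, one of the retinaldehyde dehydrogenases that make retinoic acid, was highest per UMI in the Mia gate. Mia cells held 2.90%, 15.6% and 18.8% of its UMIs, and the cells of no gate 89.7%, 68.9% and 73.8%. Mia cells held 170 CPM at P15, 230 at P25 and 277 at 8 weeks. Hand2 cells came next by mean level with 23.8, 52.2 and 27.0 CPM, where 1 cell held 45 of the 122 UMIs at 8 weeks. Hand2 cells were not separated from Pappa2 cells by the test (log2 difference 0.58, edgeR adjusted p = 0.857). The sums of at least 20 cells in the other gates held 3.41 to 40.4. The Mia sums did not overlap with any of these or with those of Hand2 cells. The difference was 14.0-fold (log2 3.81, SE 0.39, edgeR adjusted p = 1.87e-05, 3 of 3 libraries), and Mia cells also differed from the neighbouring Hand2 gate by 2.67 (SE 0.56, edgeR adjusted p = 0.0072). Krt14 cells were lower by a log2 difference of -1.74 (edgeR adjusted p = 0.0087), a call lost without the 8-week library (0.0916), at a threshold of 40% (0.0576) and at 5 UMIs (0.0664). Ibsp cells were at -1.19 (edgeR adjusted p 0.15 without and 0.00139 with the block) and Ifitm5 cells at -0.58 (0.453 without and 0.0221 with the block). From P15 to P25 the level was higher by counting intervals, at 1.36 times in Mia (95% interval 1.17 to 1.58), 2.19 times in Hand2 (1.76 to 2.75) and 2.58 times in Pappa2 cells (1.49 to 4.18). Ptprc cells, at 11.8 and 19.3 CPM, had a ratio of 1.63 (1.21 to 2.19), and the Ibsp, Ifitm5 and Krt14 cells lay below them at both ages, so their ratios were not read. This background also limits the lower differences of the Ibsp, Ifitm5 and Krt14 gates. From P15 to 8 weeks the ratio was 1.63 in Mia cells (1.39 to 1.93) and 1.80 in cells of no gate (1.72 to 1.89). Thinned shares of Mia cells with an Aldh1a3 UMI were 19.5%, 35.5% and 43.4% (75.3%, 76.1% and 71.0% before thinning), against 2.11% and 4.23% of Ptprc cells at P15 and P25. The order of the ages in the thinned share was not that before thinning.

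Aldh1a2, the main enzyme of retinoic acid synthesis in much of the embryo, showed its highest levels in few cells. Hand2 cells held 31.7 CPM at P15, 6.16 at P25 and 9.09 at 8 weeks. Pappa2 cells held 7.67 CPM at P15, near the 6.31 of Ptprc cells, and 110 at P25. The P25 value came from 49 UMIs in 5 of 25 cells, 26 of them in 1 cell, and all 13 UMIs of Pappa2 cells at 8 weeks came from 1 of 12 cells. Pappa2 cells were called higher by 3.74 (SE 0.87, edgeR adjusted p = 0.0318), but the edgeR adjusted p was 0.0565 with the block and 0.601 without P25, and 0.124 without the 8-week library. A gate of 5 UMIs left 7 Pappa2 cells at P25, under the minimum of 20, and gave a log2 difference of -0.55. The level in Hand2 cells at 8 weeks was 0.286 times that of P15 (95% interval 0.197 to 0.409, 41 against 132 UMIs). The log2 ratio was -1.80, and -3.33 at a threshold of 40%, -2.71 at 5 UMIs and -2.39 without the highest Scrublet scores, and the immune and Schwann marker sums given for Rbp4 apply to the same cells. Ungated cells held 14.3, 37.7 and 16.2 CPM.

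Aldh1a1, a cytosolic enzyme of the same family, was low throughout. In sums of at least 20 cells it reached 2.24 CPM in Krt14 cells at P15, on 38 UMIs of which 19 were in 1 cell, and 2.24 CPM on 1 UMI in Pappa2 cells at P25. Ptprc cells held up to 3.04 CPM and ungated cells 2.44, 1.94 and 1.88 CPM, and no gate was called for this gene. Its mouse paralog Aldh1a7 is very similar in sequence, and reads that fit both genes cannot be told apart in the deposited counts, so the value is uncertain.

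Cyp26b1, which degrades retinoic acid, was higher in Pappa2 and Ibsp cells and lower in Mia and Krt14 cells than in the other gates. Pappa2 cells held 72.2 CPM at P15 and 51.6 at P25. Ibsp cells held 46.6, 32.4 and 41.6 CPM, and Hand2 cells 35.1, 21.5 and 33.3. In Mia cells there were 0 UMIs of 1160519 at P15, which allows up to 2.59 CPM at a count of 0, 7.30 CPM at P25 and 1.81 at 8 weeks. In P25, 17 of the 40 UMIs of Mia cells were in 1 cell. Levels of Mia cells overlapped with the 2.18 to 9.25 CPM of Krt14 cells and lay below every sum of Pappa2, Ibsp and Hand2 cells. Mia cells were lower by a log2 difference of -2.58 (SE 0.56, edgeR adjusted p = 0.00554, below in 3 of 3 libraries), with an edgeR adjusted p of 0.118 without the 8-week library. Pappa2 cells were higher by 2.07 (SE 0.45, edgeR adjusted p = 0.0225), a call lost without any 1 of the libraries (0.09 to 0.133) and at 5 UMIs (0.201). Ibsp cells were higher by 1.34 (SE 0.38, edgeR adjusted p = 0.0406, 3 of 3 libraries), a call lost without P25 (0.0629) or 8 weeks (0.276), at a threshold of 40% (log2 0.95, 0.107) and with cells of several gates kept (0.0613). Krt14 cells were lower by a log2 difference of -1.54 (edgeR adjusted p = 0.0142), lost without 8 weeks (0.0694) and at 5 UMIs (0.184). Ptprc cells held 3.06, 8.62 and 4.69 CPM, the last on 1 UMI in 19 cells. By point value Mia cells were below this background in each library. The Poisson intervals of the Mia and Ptprc cells overlapped each time, so no difference was resolved. Krt14 cells were near the background at P15 and P25.

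For Cyp26b1 the ratio of 8 weeks over P15 was 0.893 in Ibsp cells (95% interval 0.744 to 1.07), and it was 0.947 in Hand2 cells (0.749 to 1.20), so neither direction was resolved. In ungated cells it was 1.81 (1.69 to 1.94), with 22.8 CPM at P15, 62.1 at P25 and 41.3 at 8 weeks. Thinned shares of Ibsp cells with a Cyp26b1 UMI were 11.8%, 6.70% and 9.07% (33.6%, 22.1% and 21.1% before thinning), against 0.793% and 1.88% of Ptprc cells at P15 and P25.

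**Figure D3:**
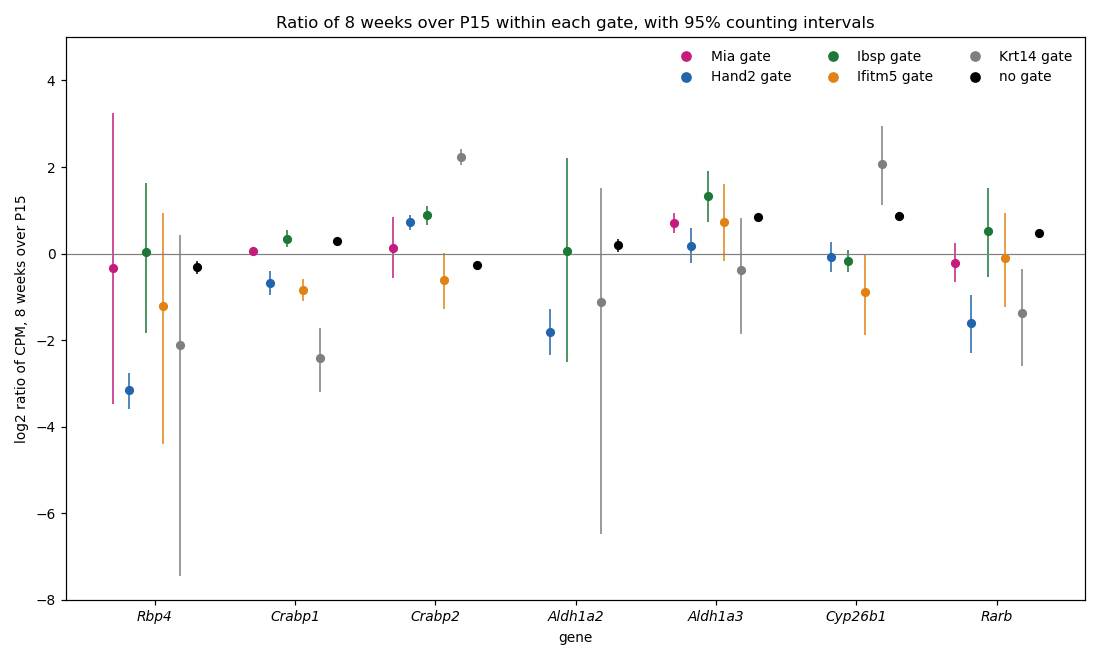
Log2 ratio of the CPM at 8 weeks over P15 for 7 members (horizontal axis) in the 5 gates with at least 20 cells at both ages and in cells of no gate, with 95% counting intervals. Points above 0 were higher at 8 weeks. Rbp4 in Hand2 cells lies at -3.16 (-1.74 with a gate of 5 UMIs) and Crabp2 in Krt14 cells at 2.24 (1.52). Genes with 0 UMIs at either age have no point.

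Rarb, the receptor with a promoter shown above, was highest in Mia cells, as Aldh1a3 and Crabp1 were. The order of the other gates differed. By mean level Pappa2 cells were at place 2 for Crabp1 (232 CPM) and at place 5 for Rarb (8.16 CPM). Mia cells held 61.2 CPM at P15, 65.3 at P25 and 53.0 at 8 weeks, with 2.11%, 11.7% and 11.2% of the gene's UMIs. The cells of no gate held 21.3, 23.8 and 29.4 CPM and 83.7%, 71.0% and 81.1% of the UMIs. Rgs5 cells held 27.7 CPM at P15, Hand2 cells 18.3, 13.1 and 5.99, and Ibsp cells 2.41, 4.80 and 3.45. The Mia values lay above all sums of at least 20 cells in other gates. Mia cells were higher by 6.15-fold (log2 2.62, SE 0.29, edgeR adjusted p = 2.67e-05), a call that held without each library. The next gate in order, Rgs5, was not separated from Mia by the test (log2 difference 1.25, SE 0.61, edgeR adjusted p = 0.286), having 1 sum. Ibsp cells were lower than the other gates by a log2 difference of -1.99 (SE 0.38, edgeR adjusted p = 0.00394), with an edgeR adjusted p of 0.0801 without P25 and 0.0939 at 5 UMIs. Ptprc cells held 3.71 and 4.82 CPM at P15 and P25, so the Ibsp level was near the background. Between P15 and 8 weeks the Mia level did not resolve a direction (ratio 0.866, 95% interval 0.639 to 1.18), and in Hand2 cells the ratio was 0.327 (0.203 to 0.514, 27 against 76 UMIs). The log2 ratio of Rarb there was -1.61, and -2.47 without the highest Scrublet scores, and the immune and Schwann marker sums given for Rbp4 apply to the same cells.

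Over the 8 members, 48 pairs of gates next to each other in the order of levels were compared. Neighbours were set by each member's own levels and are its least different pairs, so nothing is read from the 18.4% called over all genes and all 21 pairs of gates. Of the 48, 2 passed edgeR's adjusted p, and 6 with the block. The 2 were Aldh1a3 in Mia over Hand2 cells and Rarb in Krt14 over Ibsp cells (log2 difference 1.27, SE 0.44, edgeR adjusted p = 0.0261).

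Ibsp and Ifitm5 mark different matrix-producing cementoblasts in the study, and cells past 1 of these gates alone were compared directly. Cells past both were left out and numbered 207, 172 and 115 in order of age, where the Ifitm5 gate held 205, 471 and 102. Those left out held 51.1, 52.2 and 12.8 CPM of Crabp2 and 18.8, 18.2 and 21.3 CPM of Cyp26b1. Their Rarb level was 1.79, 6.68 and 7.68 CPM. Of the 8 members, 1 was called, against 10.5% of all genes. Rarb was lower in Ibsp cells by a log2 difference of -1.53 (SE 0.45, edgeR adjusted p = 0.0406), at 2.41 to 4.80 CPM against 6.89 to 10.5 CPM. The call was lost without any 1 library (edgeR adjusted p 0.0573 to 0.345). Crabp2 was at a log2 difference of 1.17, with 40.3 to 82.6 CPM in Ibsp against 16.3 to 29.7 CPM in Ifitm5 cells, and it passed with the block (edgeR adjusted p 0.149 without and 0.0343 with it), so 2 members were called there. Cyp26b1 was at 1.51 (SE 0.54, edgeR adjusted p = 0.0967), with 32.4 to 46.6 CPM in Ibsp and 8.14 to 15.1 in Ifitm5 cells. In Ibsp cells at P25, 1 cell held 44 of its 270 UMIs. In Ifitm5 cells 1 cell held 23 of 68 UMIs at P15, and 1 cell held 43 of 154 at P25. With total UMIs in place of TMM scaling, Cyp26b1 was called (edgeR adjusted p 0.0445) and Rarb was not (0.0626).

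Joint detection was read in the cells of no gate after thinning to 3000 UMIs, where each library gives its own shares and cells are not replicates. The pairs of members given were picked from all pairs with no rule set beforehand, and the other pairs are not described. Among cells with a Cyp26b1 UMI, 2.97% had an Aldh1a3 UMI at P15 (95% interval 1.49 to 5.26, 370 cells), 3.10% at P25 (516 cells) and 1.73% at 8 weeks (173 cells). Cells without Cyp26b1 had Aldh1a3 in 11.1%, 14.9% and 19.4%. In each of the 3 libraries the interval of the Cyp26b1 cells lay below the share in the other cells. Aldh1a2 gave the opposite at the later ages, with 22.9% of Cyp26b1 cells against 3.68% of the others at P25 and 15% against 1.94% at 8 weeks. At P15 the shares were 4.05% (2.29 to 6.60) and 3.02%. Cells with Rarb held Aldh1a3 in 22.4%, 20.7% and 23.4%, against 10.0%, 13.2% and 17.8% of those without. Crabp1 cells held Aldh1a3 in 14.4%, 18.1% and 25.1%, against 7.71%, 10.1% and 9.56%. Rbp4 cells held Aldh1a2 in 9.36%, 13.1% and 8.96%, against 2.83%, 5.36% and 2.62%. These cells are of many kinds, including the Ptprc cells, and no shares were tested between libraries.

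**Figure D4:**
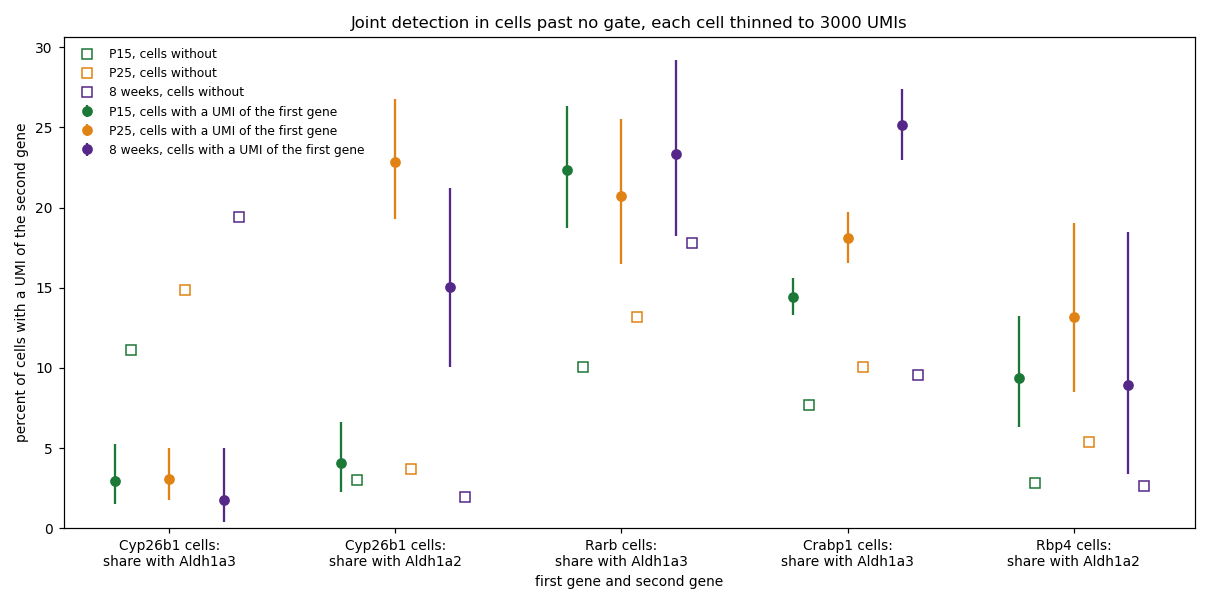
Percent of cells of no gate with a UMI of the second gene (vertical axis), among cells with (filled, 95% binomial interval) and without (open squares) a UMI of the first gene, per library. The shares of Cyp26b1 cells with Aldh1a3 are 1.73% to 3.10%, against 11.1% to 19.4% without, and those with Aldh1a2 are above the open squares at P25 and 8 weeks.

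Over the 18 sums, the levels as log2(CPM + 10) of Aldh1a3 and Rarb correlated at r = 0.87, of Crabp1 and Aldh1a3 at 0.79, and of Crabp1 and Rarb at 0.74. Rbp4 and Aldh1a2 correlated at 0.75 and Rbp4 and Cyp26b1 at 0.60, while Cyp26b1 and Rarb gave -0.56 and Crabp1 and Crabp2 -0.62. The Mia sums were the highest for Crabp1, Aldh1a3 and Rarb, and r was not computed without them. The sums share libraries and gates, so these are descriptions. Among 6019 other genes, the pattern likest to that of Crabp1 was Hmgn3 (r = 0.95), followed by 1810041L15Rik and Zfp36l1 (0.92 and 0.91). The likest to Aldh1a3 were Angpt4, Cpm and Dio3 (all 0.96), and to Rarb Sox9 (0.95), Sox11 (0.94) and Pcdh10 (0.92). Crabp2 went with Oxct1, Plcb3 and Bcl11b (0.85, 0.84 and 0.83), Rbp4 with Sulf2 (0.91), Thbs2 (0.84) and Rhou (0.82), Aldh1a2 with Mfap5, Sntb2 and Snx7 (0.86, 0.85 and 0.84), and Cyp26b1 with Desi2, Spon2 and Trps1 (0.88, 0.87 and 0.87).

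The wider pathway was followed with 42 further genes, of which 31 passed the filter on low counts. Of these, 6 (19.4%) were called in Mia cells, near the 20.5% of all genes called there, and 5 of the 6 were higher. Rdh10, which makes retinaldehyde from retinol, was higher by 2.26 (111 CPM in Mia against 22.0 in the other gates, edgeR adjusted p = 1.68e-05). Dhrs3, which turns retinaldehyde back to retinol, was higher by 1.95 (81.4 against 22.9 CPM, edgeR adjusted p = 0.0119). The receptors Rarg and Rara were higher by 0.77 each (edgeR adjusted p 0.00868 and 0.0348) and Tgm2, a known target, by 1.30 (0.0101). Fabp5, another carrier of retinoic acid, was lower by a log2 difference of -2.71 (38.2 against 1250 CPM, edgeR adjusted p = 0.000688). The other gates include Krt14 cells at 5771 CPM, which enlarge this difference.

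In Krt14 cells 18 of the 31 (58.1%) were called, near the 55.4% of all genes, 11 higher and 7 lower. Fabp5 was higher by 6 (5771 against 104 CPM, edgeR adjusted p = 1.68e-08) and Adh7, an alcohol dehydrogenase that oxidizes retinol, by 6.15 (144 against 2.78 CPM). Rarres2, encoding chemerin, was lower by a log2 difference of -3.80 and Rdh10 by -1.69. In Ifitm5 cells 6 (19.4%) were called, near the 19.7% of all genes. Stra6, the membrane receptor for RBP4, was higher there by 2.45 (13.5 against 5.94 CPM, edgeR adjusted p = 0.000449, and 0.0878 without P25) and also in Krt14 cells by 2.53 (16.5 against 5.34 CPM, edgeR adjusted p = 6.59e-05). The log2 differences average the other gates on the log2 scale, and the CPM are plain means. The low Stra6 level of Pappa2 cells (0.165 CPM) therefore widens both log2 differences beyond what the CPM show. The other calls in Ifitm5 cells were Dhrs7 higher by 0.66, and Rarres2 (-2.37), Tgm2 (-1.46), Nrip1 (-1.01) and Rxra (-0.55) lower. Ibsp cells had the receptors Rara (log2 difference -0.89) and Rxra (-0.47) lower. Pappa2 cells had Stra6 lower at 0.165 against 8.08 CPM (log2 difference -4.20, SE 0.94, edgeR adjusted p = 0.0248). In the P25 sum of this gate, of 445832 UMIs, a count of 0 allows up to 6.73 CPM, so that sum adds little to the difference. Rgs5 cells, which entered with 1 sum assumed to vary like the other gates, had Rdh5 higher by 2.92 (44.6 against 4.90 CPM) and Tgm2 by 1.64. In Hand2 cells 0 of 31 were called by edgeR's quasi-likelihood test, where 8.78% of all genes were, so nothing is read from this count. Of the 31, 4 had an unadjusted p under 0.05, and DESeq2 called 2. The list's median log2 difference lay between -0.55 (Ifitm5) and 0.22 (Mia).

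**Figure D5:**
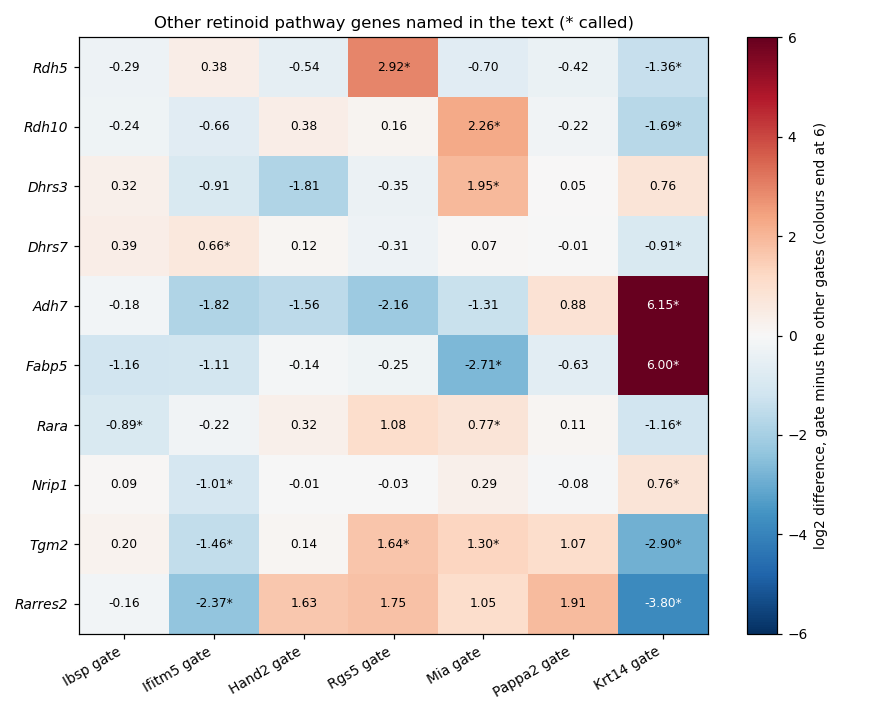
Log2 difference of each gate from the other gates for 10 pathway genes other than the members (rows), with an asterisk where the edgeR adjusted p was under 0.05. Colours end at 6. Rdh10 and Dhrs3 are higher in Mia cells (2.26 and 1.95), and Fabp5 and Adh7 in Krt14 cells (6 and 6.15).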

How the data were processed

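For each library the authors deposited UMI counts per gene and cell from Cell Ranger, as whole numbers without normalization. The submitters' processing notes name Cell Ranger 6.1.2 and mm10 for all 3 libraries. The P25 file's header says 6.0.1, and that file lists 32293 genes against 22056 in the other 2, so software and age cannot be told apart at P25. The annotation is not given in the sources used here. Genes were joined by identifier. Columns of other samples numbered 0.

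The 8 members, the pathway list and the gates were chosen with earlier results of these data known. All deposited cells were kept. Scrublet's automatic threshold marked 405, 0 and 6 cells, so leaving out the 6% of cells with the highest scores was an alternative. Counts of cells past 1 gate were summed per library and gate, and sums under 20 cells were left out. They were fitted with edgeR 4.0.16 (TMM, filterByExpr, robust quasi-likelihood test, Benjamini-Hochberg adjustment over all genes tested). DESeq2 1.42.0 was an alternative. Sums of a library come from the same pooled animals, which is where the pairing comes from. Their deviations from the gate means correlated at 0.0780 to 0.545 in P15, 0.537 to 0.717 in P25 and 0.0393 to 0.586 in the 8-week library, so the library was used as a block in an alternative. CPM are UMIs of a gene per 1000000 UMIs of the sum, with Poisson intervals. Ratios carry exact conditional binomial and shares Clopper-Pearson intervals at 95%, for counting error only. For shares, each cell was thinned to 3000 UMIs and shallower cells were left out. Ptprc cells had at least 2 Ptprc UMIs and passed no gate. A count of 0 allows 3 counts.

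Named were all members, up to 2 pathway genes with the largest and 2 with the smallest log2 difference per gate among called genes with at least 20 CPM on the higher side, and the 3 genes correlating best with each member that reached 20 CPM in a sum. Rarg, Rara, Rxra, Tgm2 and Stra6 in further gates were named after their values were seen. A gene of the pathway list is not reported here. The edgeR and DESeq2 fits were tested on simulated counts, which were drawn without a library effect. Work was done in R 4.3.3 and in Python 3.11.15 with pandas 2.3.3, scipy 1.17.1, numpy 2.4.6 and, for Scrublet, scanpy 1.11.5.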

Additional observations from a re-analysis of the deposited data

Results flagged for a closer look

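Cyp26b1 went opposite ways between P15 and 8 weeks in 2 gates, by counting intervals. In Krt14 cells the 8-week level was 4.18 times that of P15 (95% interval 2.17 to 7.69, on 37 UMIs at P15 and 16 at 8 weeks). In Ifitm5 cells it was 0.538 times that of P15 (0.273 to 0.982, on 68 and 13 UMIs), where 1 cell held 23 of the 68 UMIs at P15. The Krt14 levels were 2.18 and 9.09 CPM, where Ptprc cells held 3.06, 8.62 (P25) and 4.69 CPM, the last on 1 UMI in 19 cells. With a gate of 5 UMIs the log2 ratio in Krt14 cells was 0.63 in place of 2.06. The difference between the gates was not tested. Without the cells of the highest Scrublet scores the log2 ratio in Ifitm5 cells was 0.42, so the direction there was lost.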

How the results depend on the processing

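Of the 16 member calls, 4 held under all 16 alternatives (Crabp1, Aldh1a3 and Rarb in Mia cells and Crabp2 in Krt14 cells), and 5 held without each library in turn. The count of 16 ranged from 9 to 15 without 1 library (9 without P25, 10 without 8 weeks), that of the Ibsp gate against the Ifitm5 gate (1) from 0 to 2, and that of the pathway list (37) from 20 to 44. Other alternatives added member calls. A threshold of 40% added 6 and lost 2, and the replicate block added 5 and lost 1. DESeq2 and leaving out the highest Scrublet scores each added 5 and lost 0. With a gate threshold of 10% or 40%, at 5 UMIs, or with cells of several gates kept, the Ibsp and Ifitm5 comparison called 0 members. It called 2 with DESeq2, with the replicate block, and with the block on sums of at least 5 cells, an alternative chosen after seeing the data. Without P15 it called Crabp2 (log2 difference 1.32) and Cyp26b1 (1.47), both higher in Ibsp cells, and not Rarb. Without P25 or without 8 weeks it called 0. Without the highest Scrublet scores and with total UMIs it called 1, but Cyp26b1 in place of Rarb. The replicate block changed no member call besides those given above. A gate of 5 UMIs lost 7 of the 16 calls, among them Rarb in Ibsp cells and 4 of the 5 in Krt14 cells. It has no threshold per 10000 UMIs, so it was looser for some gates and stricter for others. Ibsp cells then numbered 1586, 1818 and 1373 in order of age and Krt14 cells 1834, 983 and 127. Ifitm5 cells numbered 126, 82 and 10 and Hand2 cells 129, 75 and 31. Directions that turned were Aldh1a2 in Pappa2 cells (-0.55 at a gate of 5 UMIs), the 8-week ratio of Crabp1 in Ibsp cells (log2 -0.32 at a threshold of 10% and -0.51 at 5 UMIs, against 0.35) and that of Cyp26b1 in Ifitm5 cells (0.42 without the highest Scrublet scores). The causes were not tested. Scaling by total UMIs kept the 16 calls and put the median log2 difference of all genes at -0.34 in Ifitm5, 0.21 in Rgs5, -0.15 in Krt14 and 0.11 in Hand2 cells, and at 0.27 for Ibsp against Ifitm5. Unthinned shares left the intervals of the thinned ones in 100 of 144 cases. Depth limits Aldh1a1, Rbp4 and Aldh1a2 in most gates, where sums held few UMIs.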
